A study of Mus musculus with 3 samples.

Results

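Tubulins are the proteins from which microtubules are built. The tubulin family described here comprised 9 genes chosen by symbol: the α-tubulin genes Tuba1a, Tuba1b and Tuba1c, the β-tubulin genes Tubb5, Tubb2a, Tubb2b, Tubb3 and Tubb6, and the γ-tubulin gene Tubg1. All 9 were counted in each of 3 libraries, among 26887 genes listed in at least 1 library. The libraries came from RIA-seq (RNA interactome analysis and sequencing), in which antisense oligonucleotides pull a target RNA, and RNA held together with it, out of fixed cells. The cells were E14 mouse embryonic stem (ES) cells, a line of the 129/Ola strain, grown without feeder cells in the presence of LIF. All 3 cultures were fixed in 1% glutaraldehyde for 10 min, and their lysates were hybridized overnight at 37 °C, captured on streptavidin beads and treated with DNase before amplification and sequencing. The groups differed in the oligonucleotides: against Actb, the β-actin mRNA (Actb RIA-seq, the control), against Malat1, a nuclear long noncoding RNA (Malat1 RIA-seq), or against Tfrc, the transferrin receptor mRNA (Tfrc RIA-seq). Each group had 1 library, so there was no replicate check, and every comparison is between libraries and not between conditions. Fewer copies of an RNA in the cells and less recovery of it in the pull-down cannot be told apart.

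One α-tubulin and one β-tubulin form a dimer, and dimers join end to end into the protofilaments of the microtubule wall. γ-tubulin sits in ring complexes at centrosomes, where microtubules start to grow. Cells also adjust tubulin mRNA to the amount of free tubulin: the first residues of a tubulin chain leaving the ribosome are recognized, and the mRNA is then degraded. The chains differ most from one another in their acidic ends, which face the outside of the microtubule and carry many of its modifications.

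The start of the coding sequence is shown for 8 members because it shows how alike they are and because, in the α and β genes, it encodes the residues read in that adjustment of mRNA level. Tubg1 is shown for contrast, as its start differs from theirs. Capitals mark the first 12 coding bases, and each sequence is the 5′ to 3′ coding strand of NCBIM37, the mouse genome build (mm9) of the files.
Tuba1a: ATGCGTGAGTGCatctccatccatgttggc
Tuba1b: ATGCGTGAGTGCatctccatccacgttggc
Tuba1c: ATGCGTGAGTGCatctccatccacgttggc
Tubb5: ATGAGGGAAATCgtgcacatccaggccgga
Tubb2a: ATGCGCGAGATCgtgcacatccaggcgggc
Tubb2b: ATGCGAGAGATCgtgcacattcaggcgggc
Tubb3: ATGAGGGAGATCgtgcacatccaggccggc
Tubg1: ATGCCGAGAGAAatcatcaccctacagttg

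Tuba1b and Tuba1c were identical over these 30 bases, and Tuba1a differed from both at 1 position. Among the β genes, Tubb5 and Tubb3 differed at 2 positions, as did Tubb2a and Tubb2b. Tubg1 differed from each α and β gene shown at 19 to 21 positions. The α windows spanned an intron, with the start codon alone at the end of the first coding exon. For Tuba1b, on the minus strand, the start codon was at chr15:98764764-98764766 and the rest of the window at chr15:98763600-98763626. For Tuba1a, also on the minus strand, the blocks were chr15:98783882-98783884 and chr15:98782096-98782122. For Tuba1c, on the plus strand, they were chr15:98860853-98860855 and chr15:98864525-98864551. The other windows lay within 1 exon: Tubb5 at chr17:35974969-35974998 (minus strand), Tubb2a at chr13:34169769-34169798 (minus), Tubb2b at chr13:34222073-34222102 (minus), Tubb3 at chr8:125935506-125935535 (plus) and Tubg1 at chr11:100981508-100981537 (plus).

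The other end of the coding sequence encodes the tail that differs between tubulins. It is shown for Tuba1b and Tuba1c, whose starts were identical, and for the neighbouring β genes Tubb2a and Tubb2b. These are the last 30 coding bases, stop codon included, and no base is in capitals.
Tuba1b: gagggggaggaagaaggagaggagtactaa
Tuba1c: gaaggagacgatgagggtgaggaatattaa
Tubb2a: gaggaggaggagggtgaagatgaggcttga
Tubb2b: gaggaggaagagggcgaggatgaggcttga

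Tuba1b and Tuba1c, identical in the first window, differed at 8 positions here. Tubb2a and Tubb2b differed at 3 positions. The windows were at chr15:98762013-98762042 for Tuba1b, chr15:98868411-98868440 for Tuba1c, chr13:34166337-34166366 for Tubb2a and chr13:34219340-34219369 for Tubb2b. The tail thus told Tuba1b from Tuba1c where the start did not. The tail of Tuba1a, not shown, differed from that of Tuba1b at only 1 position and from that of Tuba1c at 7.

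The α genes form a cluster on chromosome 15, where Tuba1b (98761856-98764996, minus strand) and Tuba1a (98780272-98783982, minus strand) lie 15.3 kb apart and Tuba1c (98860322-98868536, plus strand) lies 76.3 kb beyond Tuba1a. Tubb2a (34166170-34169877) and Tubb2b (34218877-34222223) lie 49.0 kb apart on the minus strand of chromosome 13. Tubb5 is on chromosome 17 (35970871-35975251, minus strand), Tubb6 on chromosome 18 (67550371-67562402, plus strand) and Tubg1 on chromosome 11 (100981252-100987733, plus strand). All 9 are annotated as protein coding. Only Tubb3 (chromosome 8, 125935324-125945915, plus strand) overlaps another annotated gene: it lies wholly inside Gm20388, on the same strand.

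How much sequence the members share was measured by cutting 1 transcript of each into all stretches of 32 bases, a length chosen here. Each stretch was looked for elsewhere in the genome and in the other members. Between 62.2% (Tuba1c) and 69.2% (Tuba1b) of the stretches of an α gene were also present in another member. The coding sequences of the α genes were 97.1 to 98.3% identical to one another. Tubb2a and Tubb2b were 96.5% identical and shared 51.6% and 42.4% of their stretches with other members. The remaining β genes stood apart, with 1.19% (Tubb5), 2.83% (Tubb3) and 2.95% (Tubb6) shared, and Tubg1 shared none. Counting every copy outside the gene itself, the share was 87.6% for Tuba1b, 79.8% for Tuba1a, 67.2% for Tuba1c, 70.7% for Tubb2b and 58.0% for Tubb2a. It was 26.6% for Tubb3, 19.6% for Tubg1, 6.31% for Tubb5 and 3.42% for Tubb6. The read length is not given in the sources used here, and longer reads would tell more of the members apart. How the authors' counting treated reads with several matches is not given either. The split of counts among the α genes, and between Tubb2a and Tubb2b, is therefore uncertain, and class sums are given beside the single genes.

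**Figure D1:**
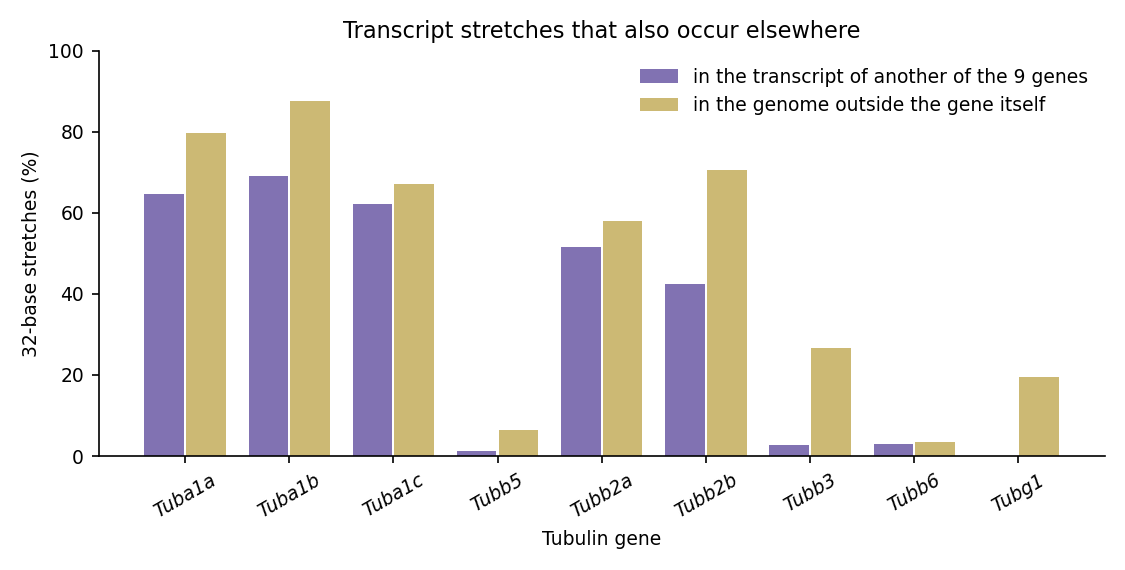
Percent of the 32-base stretches of each tubulin transcript (bars) that are also present in another of the 9 members or anywhere outside the gene itself in the NCBIM37 genome. The α genes stand at 62.2 to 69.2% shared with other members, against 1.19% for Tubb5 and 0 for Tubg1.

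The libraries held 10405209 (Actb), 10078439 (Malat1) and 14553941 (Tfrc) counts, and a share is given below per 1000000 of these counts. A count of 0 allows a share of up to 0.288, 0.298 and 0.206 per 1000000 in the same order. The 10 genes with the most counts took 52.0, 23.2 and 32.6% of these totals, and the shares of all other genes depend on that. The family fold over the control and some member folds are therefore also given relative to the median gene. All other folds are by library totals only and are to be read beside the fold of the median gene. The target Actb made up 7.30% of Actb RIA-seq and under 0.1% of the others. Malat1 was at 1.07% in Malat1 RIA-seq and also at 0.704% in Tfrc RIA-seq, against 0.183% in the control, and Tfrc was at 43.5 per 1000000 in the control, 101 with Malat1 as the target and 117 in its own library. All 10 ES cell markers looked for, among them Pou5f1, Sox2 and Nanog, were counted in every library, at 3301 to 4573 per 1000000 in sum.

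Tuba1b, a broadly expressed α-tubulin, was the most counted member in every library. It had 21053, 33943 and 36152 counts in the Actb, Malat1 and Tfrc libraries, or 2023, 3368 and 2484 per 1000000. Its share was highest in Malat1 RIA-seq and lowest in the control. Tuba1a, the α-tubulin best known from the developing brain, had 5200, 5543 and 8238 counts, or 499.7, 550.0 and 566 per 1000000. Tuba1c, a further α-tubulin, had 5016, 4808 and 7540 counts, or 482, 477 and 518 per 1000000. The shares of Tuba1a and Tuba1c thus varied less across the libraries than that of Tuba1b.

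Tubb5, the broadly expressed β-tubulin, had 5997, 4634 and 9215 counts in the Actb, Malat1 and Tfrc libraries, or 576, 460 and 633 per 1000000. Its share was lowest in the library in which that of Tuba1b was highest. Tubb2b, a β-tubulin abundant in the developing nervous system, had 1434, 1773 and 2470 counts, or 138, 176 and 170 per 1000000. Its neighbour Tubb2a had 200, 206 and 344 counts, or 19.2, 20.4 and 23.6 per 1000000. Tubb2b therefore held 7.17, 8.61 and 7.18 times the counts of Tubb2a in the 3 libraries.

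Tubb6, a β-tubulin of many non-neuronal tissues, had 648, 718 and 1239 counts in the Actb, Malat1 and Tfrc libraries, or 62.3, 71.2 and 85.1 per 1000000. Tubb3, widely used as a marker of neurons, had 244, 180 and 352 counts, or 23.4, 17.9 and 24.2 per 1000000. Neuronal markers other than Tubb3 were low but present: 8, 10 and 10 of the 10 looked for were counted, at 35.8, 89.1 and 73.4 per 1000000 in sum. Most counted among them was Elavl3, with 113, 309 and 311 counts, followed by Ina with 94, 201 and 208. Dcx and Snap25 were at 0 in Actb RIA-seq, and Dcx had 8 and 1 counts in Malat1 RIA-seq and Tfrc RIA-seq. The neuronal sum was highest in Malat1 RIA-seq, where the share of Tubb3 was lowest. Fibroblast markers summed to 19.6, 24.0 and 24.3 per 1000000, with 5, 6 and 7 of 8 counted, Thy1 supplying 177, 181 and 275 of those counts, and Col3a1 and Dcn at 0 in the control. The part of other cell types in the tubulin counts was not tested.

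Tubg1, the γ-tubulin of the ring complex, had 309, 535 and 703 counts in the Actb, Malat1 and Tfrc libraries, or 29.7, 53.1 and 48.3 per 1000000. It was the only member whose share was more than 1.5 times that of the control in both other libraries. Across the 9 members, 3 had their highest share in Malat1 RIA-seq (Tuba1b, Tubb2b and Tubg1) while 6 had it in Tfrc RIA-seq. The share was thus higher in Malat1 RIA-seq than in Tfrc RIA-seq for 3 of 9 members, against 67.9% of the 16430 genes compared. The counting interval of the ratio between these 2 libraries included 1 for Tubb2b and Tubg1 and also for Tuba1a and Tubb2a, so their order there could not be told. The share was lowest in Malat1 RIA-seq for Tuba1c, Tubb5 and Tubb3 and lowest in the control for the other 6. It was thus lower in Malat1 RIA-seq than in the control for 3 of 9 members, against 11.3% of the 14572 genes compared. How all genes divide by the library of their highest or lowest share was not computed.

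**Figure D2:**
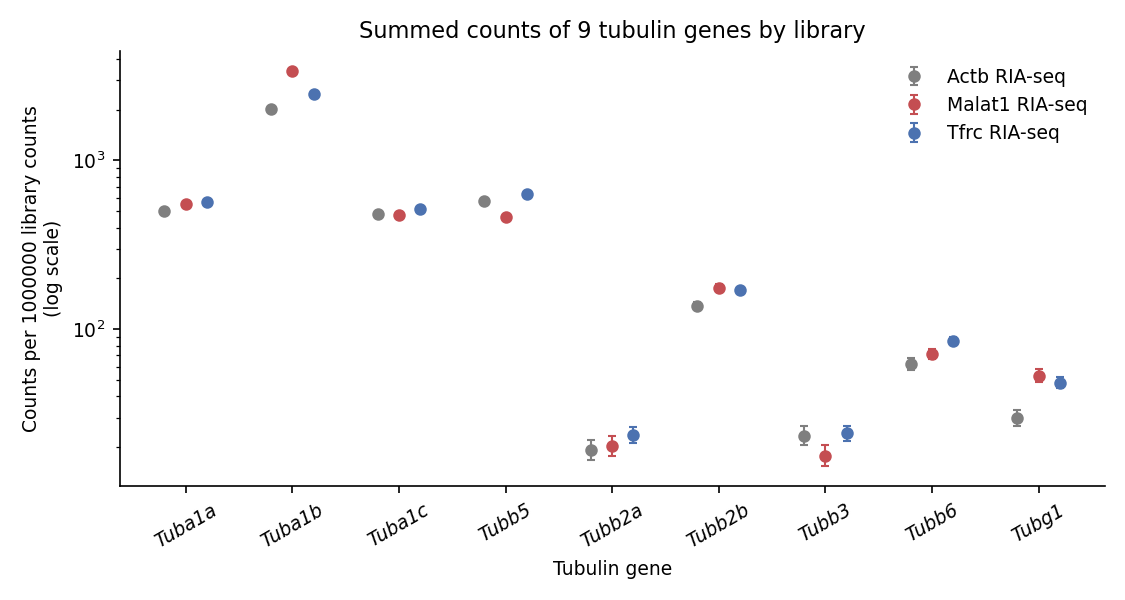
Counts per 1000000 of the library total (log axis) for each of the 9 tubulin genes in the Actb, Malat1 and Tfrc libraries, 1 of each, with 95% Wilson intervals that cover counting error only. Tuba1b lies at 2023 to 3368 and Tubb2a and Tubb3 at 17.9 to 24.2.

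To compare genes with one another, the counts listed under the gene's Ensembl identifier (Ensembl-ID counts, kept apart from those listed under the reference name Genome) were divided by the length of its merged exons. In Actb RIA-seq the level per 1000000 and per kb of exon was 1078 for Tuba1b, 303 for Tuba1a, 243 for Tuba1c, 173 for Tubb5, 71.2 for Tubb2b and 35.4 for Tubb6. Below these, Tubg1 (12.9, 95% interval 11.6 to 14.5), Tubb3 (12.6, 11.1 to 14.2) and Tubb2a (11.1, 9.61 to 12.8) had overlapping intervals, and their order could not be told at this depth. In Malat1 RIA-seq Tubg1 stood above both at 22.8 (20.9 to 24.8), followed by Tubb2a at 12.2 and Tubb3 at 9.56 (8.26 to 11.1), whose interval met that of Tubb2a (10.6 to 14.1). In Tfrc RIA-seq Tubg1 was at 20.8 and again above Tubb2a at 13.9 and Tubb3 at 12.9. The order of the 6 highest members was the same in all 3 libraries.

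The makeup of the family differed between the libraries. Of the tubulin counts, Tuba1b took 52.5% (95% Wilson interval 52.0 to 53.0) with Actb as the target, 64.9% (64.4 to 65.3) with Malat1 and 54.6% (54.2 to 54.9) with Tfrc. Tubb5 took 15.0%, 8.85% and 13.9% in the same order. The part of Tuba1a was 13.0, 10.6 and 12.4%, and that of Tuba1c was 12.5, 9.19 and 11.4%. The 5 β genes together made up 21.3, 14.4 and 20.6%, and Tubg1 made up 0.771, 1.02 and 1.06%. Actb RIA-seq and Tfrc RIA-seq were thus close to each other in makeup, and Malat1 RIA-seq had relatively more Tuba1b and less Tubb5.

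**Figure D3:**
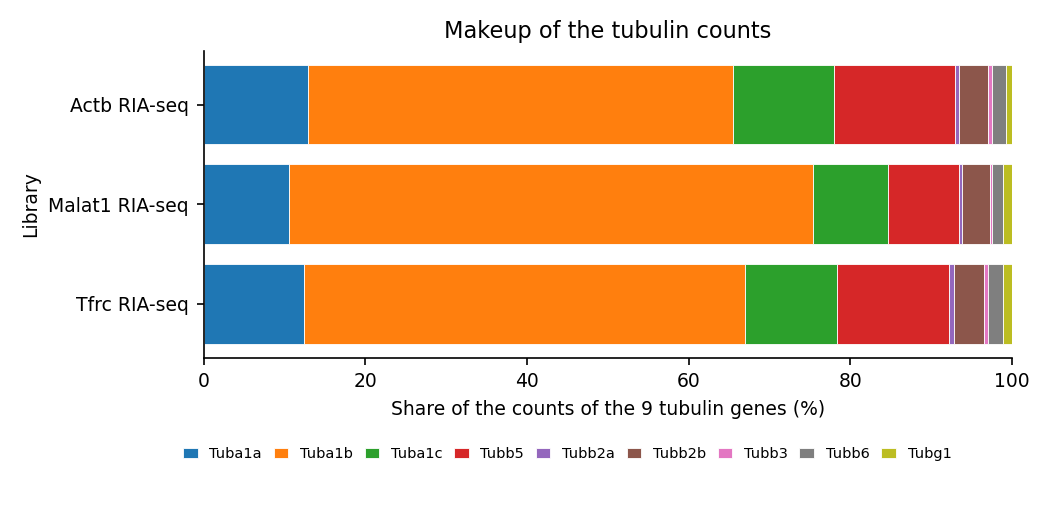
Percent of the summed tubulin counts held by each of the 9 genes in each library, stacked to 100. The Tuba1b section covers 64.9% in Malat1 RIA-seq against 52.5 and 54.6% in the Actb and Tfrc libraries.

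The comparison of Malat1 RIA-seq with Actb RIA-seq asks which RNAs were recovered more with Malat1 than with a control mRNA. The family as a whole held 3854 per 1000000 in the control and 5193 in Malat1 RIA-seq, a fold of 1.35 (95% counting interval 1.33 to 1.37) by library totals but of 0.740 relative to the median gene, whose own fold was 1.82. On Ensembl-ID counts alone, where the median gene was at 1.41, the family stood at 0.949 (0.936 to 0.961) relative to it and the α sum at 1.03 (1.01 to 1.04). Without Tuba1b, the other 8 members had a fold of 0.997 (0.977 to 1.02).

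No member reached a fold of 2 in that comparison (0 of 9), against 42.1% of the 14572 genes that had 10 or more counts in each. The 3 α genes gave 1.66 for Tuba1b (1.64 to 1.69), 1.10 for Tuba1a (1.06 to 1.14) and 0.990 for Tuba1c (0.951 to 1.03), and 1.46 when summed. Among the β genes, Tubb2b was at 1.28 (1.19 to 1.37), Tubb6 at 1.14 (1.03 to 1.27), Tubb2a at 1.06 (0.875 to 1.29), Tubb5 at 0.798 (0.768 to 0.829) and Tubb3 at 0.762 (0.628 to 0.923), and the β sum was at 0.910. Tubg1 had the largest fold of the 9, 1.79 (1.55 to 2.06). The fold was above 1 for 6 of 9 members, against 88.7% of all genes. The counting interval lay above 1 for 5 members, against 74.6% of genes, and below 1 for Tubb5 and Tubb3, against 4.66%. Relative to the median gene all 9 members were below 1, from 0.418 (Tubb3) and 0.438 (Tubb5) to 0.915 (Tuba1b) and 0.982 (Tubg1, interval 0.854 to 1.13). On Ensembl-ID counts alone 7 of 9 were below 1, and Tuba1b at 1.17 (1.15 to 1.19) and Tubg1 at 1.24 (1.08 to 1.43) were above it. A fold of 2 was reached on those counts by 0 of 9 members, against 24% of 13195 genes. The median member fold was 1.10.

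Tfrc RIA-seq against Actb RIA-seq asks the same for RNA recovered with the Tfrc mRNA, and shares its control library with the comparison above. The family held 4552 per 1000000 in Tfrc RIA-seq, a fold of 1.18 (1.17 to 1.20) by library totals but of 0.758 relative to the median gene, which was at 1.56. No member reached a fold of 2 (0 of 9), against 28.6% of 14691 genes. All 9 members had a fold above 1 by library totals (1 of 9 relative to the median gene), as did 87.2% of genes, and the counting interval was above 1 for 8 of them, against 69.4% of genes. The exception was Tubb3, at 1.03 (0.876 to 1.21).

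The α folds in Tfrc RIA-seq were 1.13 (Tuba1a), 1.23 (Tuba1b) and 1.07 (Tuba1c), and the β folds ran from 1.03 (Tubb3) through 1.10 (Tubb5), 1.23 (Tubb2a) and 1.23 (Tubb2b) to 1.37 (Tubb6). The α sum was at 1.19 and the β sum at 1.14, so the folds of both classes were close. Tubg1 again had the largest fold, 1.63 (1.42 to 1.86). Relative to the median gene, 8 of 9 members were below 1, and Tubg1 was at 1.04. On Ensembl-ID counts alone, where the median gene was at 1.26, 7 of 9 were below 1, Tubb6 was at 1.07 (0.976 to 1.18), Tubg1 at 1.27 (1.11 to 1.46) and the family at 0.931. A fold of 2 was reached on those counts by 0 of 9 members, against 14.1% of 13391 genes. The direction of the family fold over the control thus turned with the scaling in both comparisons.

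**Figure D4:**
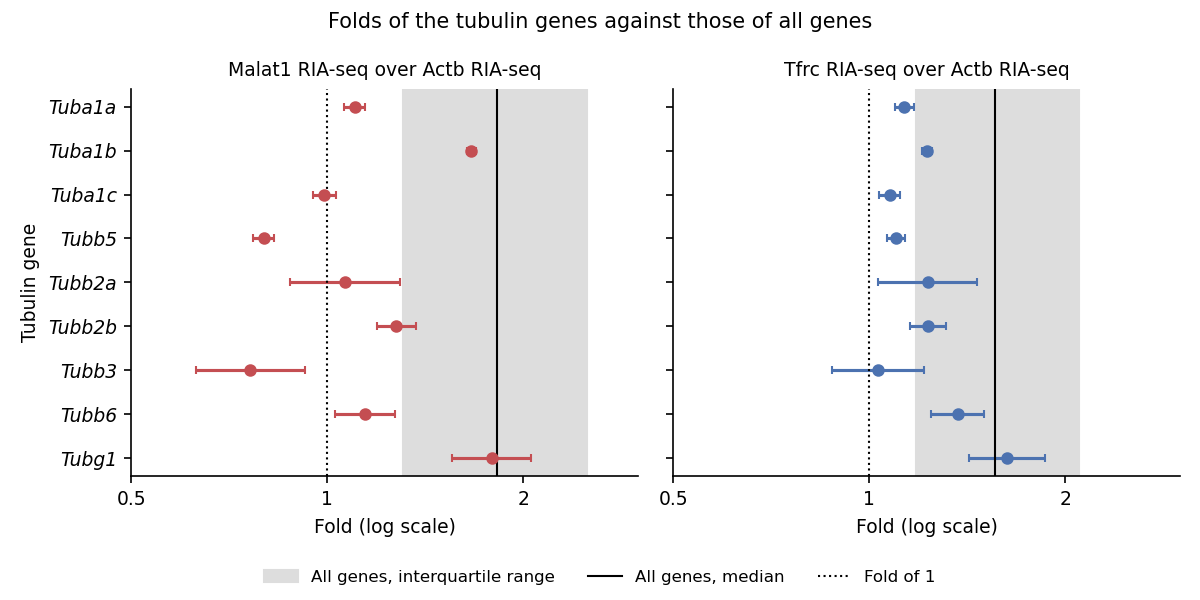
Fold of each tubulin gene over Actb RIA-seq on a log axis, in Malat1 RIA-seq and Tfrc RIA-seq, as ratios of shares of library totals with 95% counting intervals, beside a fold of 1 and the median and interquartile range of all genes with at least 10 counts. The median gene lies at 1.82 and 1.56, above all members except Tubg1 in Tfrc RIA-seq (1.63).

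Malat1 RIA-seq was also compared directly with Tfrc RIA-seq, which leaves out the control library and its large Actb count. No member reached a fold of 2, against 4.35% of 16430 genes. The interval lay above 1 for 1 member, Tuba1b at 1.36 (1.34 to 1.38), where 39.5% of all genes had such an interval. The interval lay below 1 for 4 members: Tubb5 at 0.726 (0.701 to 0.752), Tubb3 at 0.738 (0.617 to 0.884), Tubb6 at 0.837 (0.763 to 0.917) and Tuba1c at 0.921 (0.888 to 0.955), against 11.9% of genes. Tuba1a (0.972), Tubb2a (0.865), Tubb2b (1.04) and Tubg1 (1.10) had intervals that included 1. The family sum was at 1.14, and the median gene at 1.15.

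A ratio of counts within a library does not depend on the total. The α members held 3.67 times the counts of the β members (3.58 to 3.76) in the control, 5.90 times (5.75 to 6.04) with Malat1 as the target and 3.81 times (3.74 to 3.89) with Tfrc. From the control to Malat1 RIA-seq this ratio was higher by a factor of 1.61 (1.55 to 1.66), and from the control to Tfrc RIA-seq by 1.04 (1.01 to 1.07). The ratio of Tuba1b to Tubb5 was 3.51, 7.32 and 3.92. Leaving out Tuba1b brought the ratio to 1.20, 1.38 and 1.16, and leaving out Tubb5 instead brought it to 12.4, 15.4 and 11.8. The value in Malat1 RIA-seq thus stayed the highest of the 3 without either gene, with factors over the control of 1.15 (1.10 to 1.20) and 1.24 (1.18 to 1.31).

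The difference was not present once Tubb4b was counted. Tubb4b, a broadly expressed β-tubulin outside the 9 members, had 6134, 13537 and 11339 counts in the Actb, Malat1 and Tfrc libraries. Its counts were 1.02, 2.92 and 1.23 times those of Tubb5, so these 2 β genes differed from each other in Malat1 RIA-seq far more than in the other libraries. With Tubb4b among the β genes, the α to β ratio was 2.13, 2.10 and 2.08, and with all listed α and β genes it was 2.22, 2.23 and 2.16. The change from the control to Malat1 RIA-seq was then 0.986 (0.962 to 1.01) and 1.00 (0.977 to 1.03). These ratios were chosen after the values were seen.

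**Figure D5:**
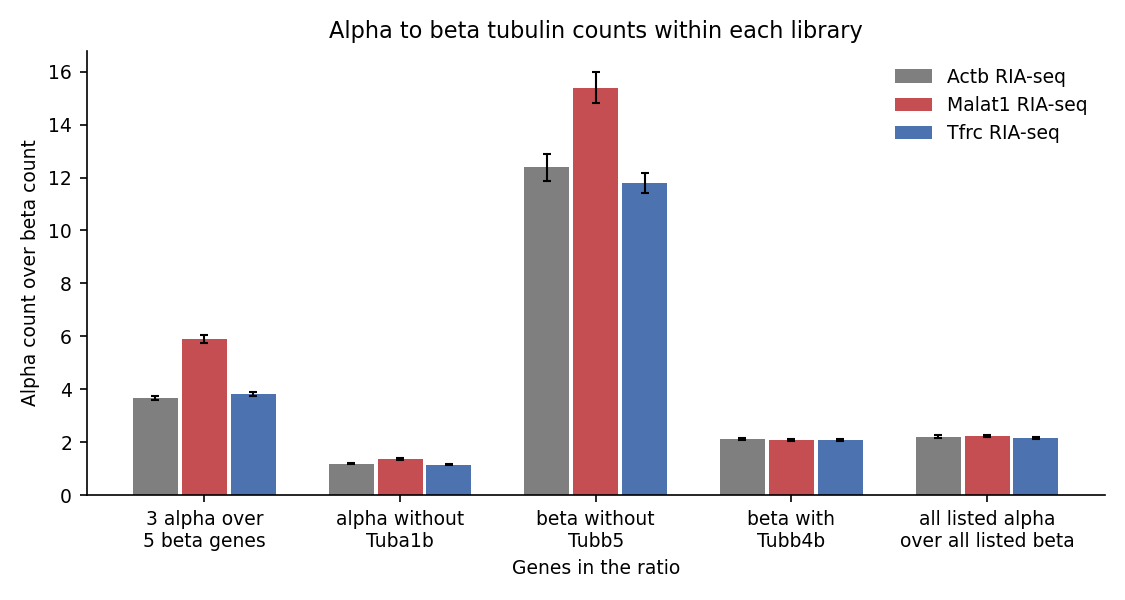
Ratio of α-tubulin to β-tubulin counts within each library (bars, 95% counting intervals) for the member genes, without Tuba1b, without Tubb5, with Tubb4b among the β genes, and for all listed α and β genes. Malat1 RIA-seq stands out for the members (5.90 against 3.67 and 3.81) and is level with the others once Tubb4b is included (2.10 against 2.13 and 2.08).

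Each gene could have 2 counts in a library, one under its Ensembl identifier and one under the reference name Genome. Genome counts were rare among the tubulins: 89 of 40101 with Actb as the target, 324 of 52340 with Malat1 and 391 of 66253 with Tfrc, or 0.222, 0.619 and 0.590%. The median gene with at least 200 counts had 7.77, 23.8 and 21.1%. Tubb2a had the largest part of its counts there among the members, at 8.50, 5.34 and 6.98%. Tubb3 had 0, 0 and 2 Genome counts, while Gm20388, the gene that contains it, had 3020, 10957 and 11110. Whether reads from the introns of Tubb3 were counted to Gm20388 was not tested.

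Taken alone, the Genome counts of the family were 3.76 times (2.97 to 4.75) and 3.14 times (2.50 to 3.95) as high a share in Malat1 RIA-seq and Tfrc RIA-seq as in the control. Genome counts of the median gene had folds of 3.60 and 2.86. Of the 7 members with more than 3 Genome counts in both libraries, 6 had a Genome fold of at least 2 in each comparison, against 88.6 and 79.6% of the 8297 and 8344 genes that had 10 or more Genome counts in each library. At that same minimum 5 members were left, and 4 of them (Tuba1b, Tuba1c, Tubb5 and Tubb2b) had a Genome fold of at least 2 in each comparison. Tubb2a was the exception, with 17, 11 and 24 Genome counts and folds of 0.668 (0.313 to 1.43) and 1.01 (0.542 to 1.88). Tuba1b, with 24, 136 and 116 Genome counts, had folds of 5.85 (3.79 to 9.03) and 3.46 (2.23 to 5.36). With Ensembl-ID counts alone, the family fold was 1.34 and 1.18.

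Pseudogene copies of the α genes were counted as well. Of the annotated genes, 11 held at least 100 of a member's 32-base stretches, and 6 of these were pseudogenes, all closest to Tuba1b. The 3 large ones were Gm17383, with 2596, 3484 and 4071 counts, Gm5620, with 2214, 2867 and 3283, and Gm14150, with 1863, 906 and 2238. The pseudogenes together amounted to 21.6, 16.4 and 18.6% of the α member count. Gm17383 and Gm5620 had folds of 1.39 and 1.34 in Malat1 RIA-seq over the control, between those of Tuba1a and Tuba1b, while Gm14150 was at 0.502 and had the largest number of shared stretches (981). With all 6 added, the family fold was 1.31 and 1.16.

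The members were also compared with the sequences of the 3 targets, since an oligonucleotide could bind a transcript that resembles its target. Runs on either strand were accepted and the strand of a match was not kept, although only a same-strand match could bind an antisense oligonucleotide. The longest run of bases shared with a target was 11 to 15 for 8 of the members. Tubb5 was the exception, with a run of 36 bases shared with Malat1 and 1 of 26 shared with Actb, the latter made of a single letter, both in its 3′ UTR. The 32-base stretches of Tubb5 were found in 5836 other annotated genes, and how many of these hold the 36-base run was not tested. Tubb5 had a lower share in Malat1 RIA-seq than in the control or in Tfrc RIA-seq. The sequences of the oligonucleotides were not used here, so their match to the tubulins was not tested.

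Another 11 tubulin genes outside the 9 were looked for and were all listed, and 8 of them had at least 10 counts in both libraries of a comparison. Besides Tubb4b, with folds over the control of 2.28 (2.21 to 2.35) with Malat1 and 1.32 with Tfrc as the target, the α-tubulin gene Tuba4a had 677, 1607 and 1075 counts and folds of 2.45 (2.24 to 2.68) and 1.14. By the same totals the median gene was at 1.82 and 1.56. Tuba3a had 526, 780 and 882 counts and Tuba3b had 124, 235 and 217, with folds of 1.53 and 1.96 in Malat1 RIA-seq. These close copies may share reads, so their split is uncertain. Tube1, the ε-tubulin of centrioles, had 36, 96 and 123 counts and folds of 2.75 and 2.44. Of these counts, 5, 33 and 44 were Genome counts. In Malat1 RIA-seq 3 of the 8 reached a fold of 2 and in Tfrc RIA-seq 1 of 8, where 0 of the 9 members and 42.1 and 28.6% of all genes did. Tubb4a (20, 33 and 42 counts), Tubd1 (22, 26 and 42) and Tubg2 (23, 27 and 26), the close relative of Tubg1, had counting intervals that included 1 in both comparisons. Tuba8 had 0, 7 and 5 counts, Tubal3 0, 0 and 5, and Tubb1, a β-tubulin of platelets, 1, 0 and 0.

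Genes that act on tubulins were followed as lists, to be read against the 42.1% (Malat1) and 28.6% (Tfrc) of all genes at a fold of 2. Their folds are of summed counts and were not computed on Ensembl-ID counts alone. Among 22 genes of tubulin folding, including the chaperonin and the tubulin cofactors, 4 reached a fold of 2 with Malat1 as the target and 1 with Tfrc, with median folds of 1.24 and 1.12. Its most counted genes over the 3 libraries summed, the chaperonin subunits Tcp1 and Cct7, had folds of 0.841 and 1.15 in Malat1 RIA-seq and 1.00 and 1.07 in Tfrc RIA-seq. Cct2, another subunit, had more counts than either in Malat1 RIA-seq (2901), with folds of 1.33 and 0.884. Both medians of this list lay below those of all genes (1.82 and 1.56), as those of the members (1.10 and 1.23) did. The 11 genes of the γ-tubulin ring complex and its anchors had medians of 2.01 and 1.57, with 6 and 1 at a fold of 2 or more, against 42.1 and 28.6% of all genes. Pcnt and Cdk5rap2, which hold the ring complex at the centrosome, had folds of 2.75 and 2.76 in Malat1 RIA-seq and 1.69 and 1.87 in Tfrc RIA-seq. Of the counts of Cdk5rap2, 149 of 426, 631 of 1137 and 627 of 1112 in the Actb, Malat1 and Tfrc libraries were Genome counts. For Pcnt these were 137 of 686, 434 of 1826 and 413 of 1623.

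Enzymes that modify tubulin numbered 14, of which 5 and 3 reached a fold of 2, against 42.1 and 28.6% of all genes, with medians of 1.88 and 1.51. Agtpbp1, which shortens glutamate chains on tubulin, had folds of 2.54 and 2.11, and Ttll5, which adds glutamate, had 3.64 and 2.42. Genome counts made up 173 of 360, 494 of 887 and 549 of 1062 counts of Agtpbp1 in the Actb, Malat1 and Tfrc libraries. For Ttll5 they made up 137 of 288, 629 of 1016 and 569 of 973. Of the genes of microtubule dynamics, 13 of 34 and 5 of 35 reached a fold of 2, with medians of 1.69 and 1.46. Mtap4, which binds along microtubules, had folds of 1.65 and 1.46, and Stmn2, which holds free tubulin dimers, had 2.15 and 1.45. For Stmn2, 193 of 1434, 803 of 2984 and 794 of 2905 counts were Genome counts. Of 28 motor genes 9 and 2 reached a fold of 2, with medians of 1.70 and 1.31, and Dync1h1, the dynein heavy chain, was at 1.71 and 1.16 and Kif5b, a kinesin heavy chain, at 1.41 and 1.19.

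The genes whose shares over the 3 libraries were most like the family sum were found among 848 genes with at least 1000 counts in every library, by the distance between centred log2 shares. All tubulins and the listed genes that act on them were left out beforehand. Among the nearest were Eif4g2, a translation factor (distance 0.0075, with 9751, 12699 and 15995 counts) and Ubtf, a factor of ribosomal RNA transcription (0.0122). Likeness over 3 libraries rests on 2 folds that share the control, and Eif4g2 had 1.34 and 1.17 beside 1.35 and 1.18 for the family.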

How the data were processed

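RNA recovered by RIA-seq from E14 ES cells was analysed in 3 libraries, 1 per condition, grouped by the oligonucleotide target named in the labels. The authors deposited raw read counts per gene, as whole numbers without normalization. The submitters' processing notes name Bowtie 0.12.7 and the build NCBIM37 (mm9), with no role given. The handling of reads with several matches is not given in the sources used here. Of 24080 Ensembl identifiers, 98.6% were found in the GENCODE annotation of NCBIM37. Ensembl-ID and Genome counts were summed per gene and divided by the library total. The fold is the ratio of these shares, with a pseudocount of 0 and a 95% log-scale interval from the counts. Intervals of shares are Wilson intervals, and all intervals cover counting error only, since each condition had 1 library. PCR duplicates cannot be told apart, so the intervals may be too narrow even for counting error. A call was a fold of at least 2, with a background of genes that had 10 or more counts in each. Folds were tested on simulated counts. These held counting error only, so that test cannot cover variation between libraries. The depth was 10078439 to 14553941 counts. Alternatives were other scalings (including edgeR TMM factors), a pseudocount of 1, either kind of count alone, the other target as control, the sum without Tuba1b and a minimum of 50 counts. The members and lists were chosen with earlier results of these data known. All 9 members are named, with all other tubulins and the 2 genes of each further list with the most counts summed over the 3 libraries, which differ in depth. Cct2 was named after its values were seen. The 2 nearest genes by likeness to the family sum are also named, and a further item of the rule is not reported here. Gm20388, the pseudogenes, Elavl3, Ina, Dcx, Snap25, Thy1, Col3a1 and Dcn were named after their values were seen. The software was Python 3.11.15, numpy 2.4.6, pandas 2.3.3, scipy 1.17.1, Biopython 1.88, matplotlib 3.10.9, R 4.3.3 and edgeR 4.0.16.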

Additional observations from a re-analysis of the deposited data

How the results depend on the processing

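The family fold over Actb RIA-seq, 1.35 (Malat1) and 1.18 (Tfrc) with library totals, fell below 1 under the other scalings. It was 0.716 and 0.710 with median-ratio size factors, 0.725 and 0.732 with TMM factors, and 0.842 and 0.841 with totals that leave out the 10 largest genes. The members above 1, 6 (Malat1) and 9 (Tfrc) of 9 by totals, were 0 and 0 with median-ratio factors, 0 and 1 with TMM factors, and 2 and 1 without the 10 largest genes. The median gene, at 1.82 and 1.56 by totals, was at 0.967 and 0.937, 0.979 and 0.966, and 1.14 and 1.11 in the same order. The share of all genes above 1 under these scalings was not computed. With Genome counts only the family fold was 3.76 and 3.14. In each comparison 6 of the 7 members with more than 3 Genome counts in both libraries reached a fold of 2. With summed counts 0 of 9 did. Among genes with 10 or more Genome counts in each library, 88.6 and 79.6% reached that fold on Genome counts. With the other target library as the control the family fold was 1.14 and 0.877. Without Tuba1b it was 0.997 and 1.13. With the 6 pseudogene copies, an alternative chosen after seeing the data, it was 1.31 and 1.16. A pseudocount of 1 and Ensembl-ID counts alone moved neither family fold by totals beyond its interval. Relative to the median gene, Ensembl-ID counts alone moved the family from 0.740 to 0.949 (Malat1) and from 0.758 to 0.931 (Tfrc). The count of members at a fold of at least 2 was 0 under every alternative except Genome counts. At a minimum of 50 counts, 37.6% (Malat1) and 20.8% (Tfrc) of all genes reached it. Lower folds did move. In Malat1 RIA-seq Tubb5 was at 0.424, 0.429 and 0.499 with median-ratio factors, TMM factors and totals without the 10 largest genes. Tubb3 was at 0.405, 0.410 and 0.476, so both passed 0.5. Each of these scalings lowered the folds of all genes in the comparison by the same factor. The share of all genes below 0.5 under them was not computed, so passing 0.5 is not read as particular to Tubb5 and Tubb3. No paired analysis was possible because each condition had 1 library. For the same reason no library could be left out, and the depth limits counting error only. Genes with few counts, such as Tubb2a and Tubb3, have the widest intervals.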
